A study of Mus musculus with 27 samples.

Results

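Switch-region junctions from cells that lacked XLF were compared with those from cells that lacked PAXX. The 12 libraries, 6 for each genotype, were chosen by genotype label from the 27 libraries of the series. They were the only libraries of the series whose sequencing runs held both genotypes. Shared run 1 held 2 libraries of each genotype and shared run 2 held 4 of each, so the genotypes could be set against each other inside a run.

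All cells were CH12F3, a mouse B lymphoma line that switches from IgM to IgA in culture. There were 2 XLF-/- clones and 2 PAXX-/- clones, each derived from the parental line, and 3 libraries of each clone, which the design text calls biological replicates. Every group was stimulated in the same way, with IL-4 at 20 ng/mL, an antibody against CD40 at 1 mg/mL as labelled, and TGFβ at 1 ng/mL, and genomic DNA was taken at 72 h. Genotype rested on 2 clones a side, and junction tables hold no reading of the Xlf or Paxx gene, so the genotype labels could not be checked from these data. The 3 libraries of unedited parental cells (WT) are given beside the results, and none of them came from a shared run.

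Class switch recombination replaces the constant region of an antibody heavy chain. The enzyme AID starts breaks in the repetitive switch regions, here Sμ upstream and Sα downstream, and the ends are joined mostly by classical non-homologous end joining. In that pathway Ku binds the ends and DNA ligase 4 with XRCC4 seals them. XLF (Nhej1) pairs with XRCC4 and helps to hold ends together, and PAXX, a structural relative of XRCC4 and XLF, binds Ku. When the classical pathway fails, ends can be joined by alternative routes that rely more on microhomology, short runs of bases present at both ends.

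The assay, LAM-HTGTS (a translocation sequencing method that begins with linear amplification), extends a primer in the 5′ part of Sμ across whatever the broken Sμ end was joined to. Each junction therefore has a bait part, read from Sμ, and a prey part, which lies elsewhere in the genome. The bait, shown because its letters carry the results on bait ends, is read from the minus strand at chr12:114664810-114664909 (mm9), with the AGCT motifs preferred by AID in capitals.

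Bait, positions 1 to 100: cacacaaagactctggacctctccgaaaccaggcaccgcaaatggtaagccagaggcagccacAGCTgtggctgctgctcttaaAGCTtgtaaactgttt

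A join was called direct when bait and prey alignments met with no base shared or inserted, microhomology when they shared 1 or more bases, and insertion when 1 or more read bases lay between them. Examples of the 3 classes show what these joins look like in the reads, with 20 bases of bait on the left and 20 bases of prey on the right. For each class the example is the exact Sα junction found in most of the 12 libraries. The shared base or inserted bases are in capitals, and a direct join has none.

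Direct join to chr12:114498718: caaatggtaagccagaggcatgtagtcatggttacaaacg

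Microhomology join to chr12:114498448: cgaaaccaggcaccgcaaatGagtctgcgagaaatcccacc

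Insertion join to chr12:114500087: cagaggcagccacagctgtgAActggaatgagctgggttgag

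The direct join was found in 3 XLF-/- and 1 PAXX-/- libraries; the insertion join, with 2 added bases, was found in 3 XLF-/- and 2 PAXX-/- libraries. The microhomology join, on 1 shared base, was listed once in each of the 12 libraries and in all 27 libraries of the series, unlike the other examples, so it may not be typical of its class; whether it is a recurrent artefact was not tested. A longer microhomology join, picked after the values were seen, shared 5 bases with chr12:114499910 and was found in 5 XLF-/- and 4 PAXX-/- libraries. It too recurred across the series, in 20 of the 27 libraries, and whether it is an artefact was not tested.

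Join on 5 shared bases: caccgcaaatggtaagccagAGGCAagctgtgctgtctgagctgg

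The same place in mm9, 10 bases lost and then the bases kept: gagctgacctAGGCAagctg

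The 12 libraries held 72783 junctions, 37282 from XLF-/- and 35501 from PAXX-/- cells, and between 4334 and 10164 per library. Of these, 33661 lay in a 20 kb window around Sα (chr12:114489501-114509500), 21435 lay within 10 kb of the bait and 14404 were on other chromosomes. Genotypes were compared by an exact two-sided permutation test that exchanged genotype labels between libraries of the same run. The 420 possible exchanges allow no p below 0.00476. Differences are XLF-/- minus PAXX-/- in percentage points, with the 95% interval from the same test, and p-values were adjusted by Benjamini-Hochberg over a first set of 21 measures, or over a second set of 57 added later. Of the 21 measures 15 passed at 0.05, 7 higher and 8 lower in XLF-/-, and of the 57 later ones 41 passed. Wherever a difference is said to have passed with no p beside it, it had the smallest possible p, with an exact permutation adjusted p of 0.00714 in the first set and 0.00734 in the second. The test treats libraries of 1 clone as separate, and between 2 clones and 2 clones no exact p could fall below 0.333.

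The structure of the Sα joins separated the genotypes completely. Direct joins made up 16.1, 16.9 and 17.5% of Sα junctions in the lowest, median and highest PAXX-/- library, and 5.74, 6.21 and 6.68% in the XLF-/- libraries. All 6 XLF-/- libraries lay below all 6 PAXX-/- libraries, and the share in PAXX-/- cells was 2.70 times that in XLF-/- cells. The difference was -10.6 points (95% interval -11.3 to -9.86) and passed, being -11.1 in run 1 and -10.4 in run 2. The clone means were 17.1% ± 0.481 and 16.6% ± 0.762 for PAXX-/- and 6.44% ± 0.263 and 6.06% ± 0.272 for XLF-/- (SD, n = 3 libraries each), so clones of a genotype lay far closer to each other than to the other genotype. WT libraries held 18.4% ± 0.206 direct joins (SD, n = 3).

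Microhomology joins were the larger class in both genotypes and larger still in XLF-/- cells. Their share was 50.6, 53.7 and 57.0% in the lowest, median and highest PAXX-/- library and 74.5, 76.7 and 77.9% in XLF-/-. The groups did not overlap, and the difference of 23.1 points (20.6 to 25.7) passed and was 20.6 in run 1 and 24.4 in run 2. In WT libraries the share was 54.3% ± 0.960 (SD, n = 3).

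Insertion joins were also fewer without XLF. They made up 26.5, 28.9 and 33.3% of Sα junctions in the lowest, median and highest PAXX-/- library and 15.4, 17.2 and 19.3% in XLF-/-, with no overlap. The difference was -12.5 points (-15.8 to -9.75), -9.54 in run 1 and -14.0 in run 2. Because 3 shares of a whole move together, direct joins were also taken among direct and microhomology joins alone: the share was 24.0% ± 0.740 in PAXX-/- and 7.55% ± 0.345 in XLF-/- (SD, n = 6 each). That difference of -16.5 points (-17.1 to -15.7) passed and involves no insertion.

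**Figure D1:**
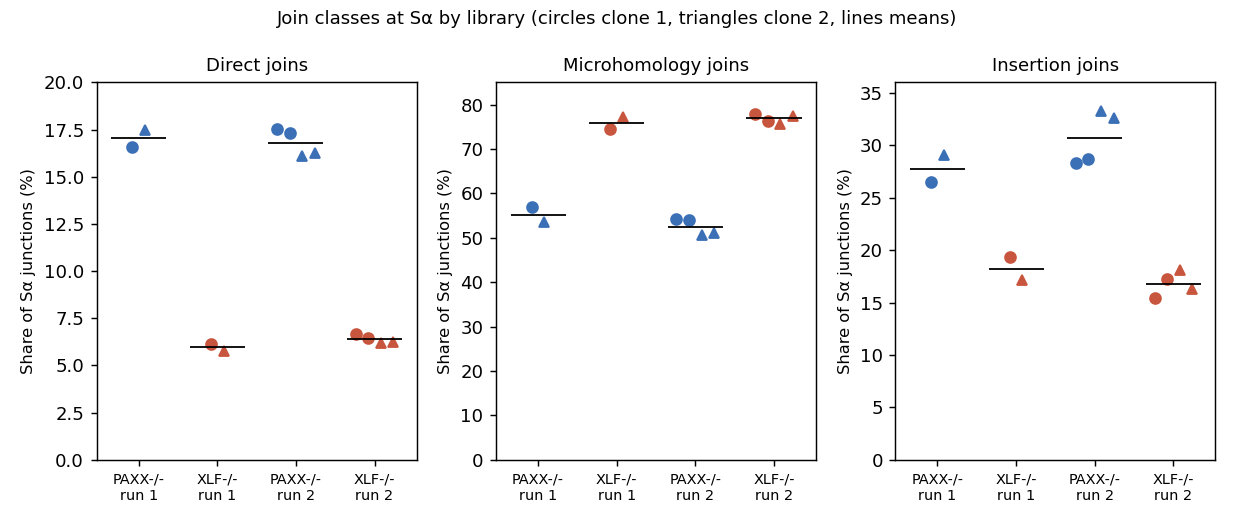
Share of Sα junctions (%, vertical axes) that were direct, microhomology or insertion joins in each library, by genotype and shared run (circles clone 1, triangles clone 2, lines means). In both runs every XLF-/- library lies below the PAXX-/- libraries for direct and insertion joins and above them for microhomology joins, as with 5.74 to 6.68% against 16.1 to 17.5% for direct joins.

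Microhomologies were longer as well as more frequent in XLF-/- cells. Their mean length was 2.28, 2.34 and 2.37 bases in the lowest, median and highest PAXX-/- library and 2.82, 2.88 and 2.93 bases in XLF-/-. The difference of 0.534 bases (0.480 to 0.591) passed, with no overlap, and was 0.528 in run 1 and 0.537 in run 2. Joins on 4 or more shared bases, the length class of the last example above, made up 9.61% ± 0.657 of Sα junctions in PAXX-/- and 20.8% ± 1.08 in XLF-/- (SD, n = 6 each), a difference of 11.2 points that passed.

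The gain was not spread over all lengths. Joins on 1 shared base were fewer in XLF-/- cells, 11.2% ± 0.571 against 18.2% ± 1.52 in PAXX-/- (SD, n = 6 each). Joins on 2 shared bases were 9.33 points higher, those on 3 were 9.63 points higher, those on 4 were 6.04 points higher and those on 5 were 3.12 points higher. All of these differences passed. The ratio of XLF-/- to PAXX-/- was 0.614 at 1 base, 1.62 at 2, 1.92 at 3, 2.04 at 4, 2.29 at 5 and 2.45 at 6 or more bases, so the ratio was larger at each longer class.

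Among insertions, the 1-base class differed most in points. Insertions of 1 base made up 8.23, 8.75 and 9.41% of Sα junctions in the lowest, median and highest PAXX-/- library and 3.62, 4.20 and 4.87% in XLF-/-, without overlap. That difference of -4.59 points (-5.27 to -3.87) passed. Insertions of 2 bases differed by -0.865 points, of 3 bases by -2.43 and of 4 to 5 bases by -2.04, and all of these passed. Insertions of 6 to 20 bases did not pass, at 5.45% ± 0.969 in PAXX-/- and 4.53% ± 0.821 in XLF-/- (SD, n = 6 each; difference -0.922, interval -2.20 to 0.347, exact permutation adjusted p = 0.145). Insertions of over 20 bases, 3.42% ± 0.856 in PAXX-/- and 1.78% ± 0.613 in XLF-/- (SD, n = 6 each), passed, but the difference was -0.479 points in run 1 and -2.22 in run 2.

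**Figure D2:**
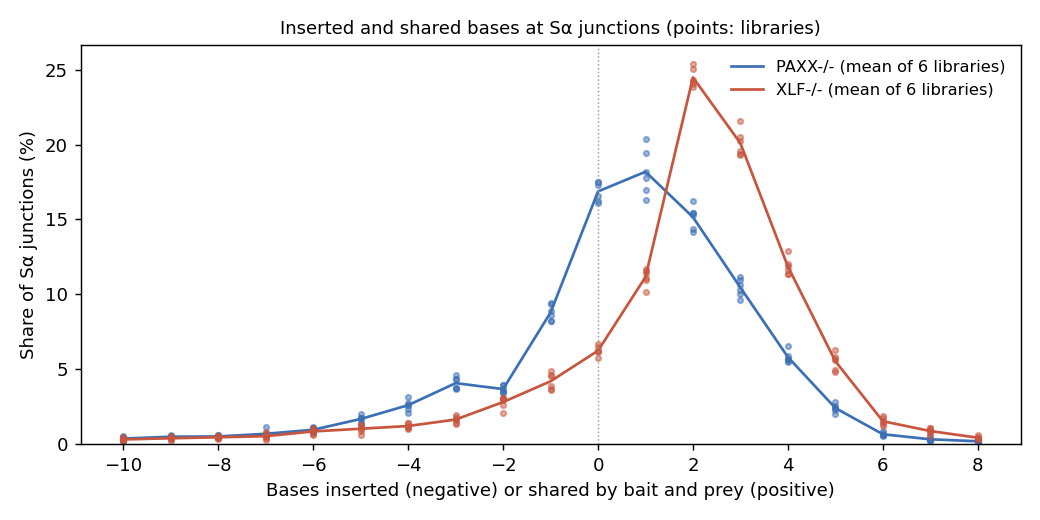
Share of Sα junctions (%, vertical axis) by the number of bases inserted (below 0) or shared (above 0) at the join, with points for libraries and lines for the means of 6 libraries a genotype. PAXX-/- libraries lie higher from small insertions up to 1 shared base, and XLF-/- libraries lie higher from 2 shared bases upward, as with 20.1% against 10.5% at 3 bases.

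The base inserted also differed. Among 1-base insertions A made up 46.4% ± 4.83 in PAXX-/- and 36.4% ± 4.64 in XLF-/- (SD, n = 6 each). C made up 8.68% ± 1.01 and 17.0% ± 5.10, and the exact permutation adjusted p was 0.0136 for each of these bases. G was higher in XLF-/-, 11.4% against 7.18% (exact permutation adjusted p = 0.0265), by 8.50 points in run 1 and 2.08 in run 2. T at 35.2% against 37.7% did not pass (exact permutation adjusted p = 0.559). For all 4 bases the libraries of the groups overlapped, and the XLF-/- shares rest on 681 insertions against 1580 in PAXX-/-. Some joins classed as insertions held the bait sequence itself, continued with 1 base changed, so their inserted bases may be bait left unaligned. The changed base was bait position 65 in 28 of 50 such joins in PAXX-/- clone 1 and 11 of 22 in clone 2. In XLF-/- it was so in 1 of 5 in clone 1 and 0 of 1 in clone 2. The bait end of such a join is counted before position 65. Of insertions of 5 or more bases, such continued bait made up 3.86% ± 1.31 in PAXX-/- and 0.490% ± 0.460 in XLF-/- (SD, n = 6 each), and leaving these joins out changed no call on the join classes at Sα.

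The sequences of the microhomologies were compared within each length, so that a longer mean length does not enter. Over the 131 sequences of 2 to 5 bases that made up 0.5% or more of their length class on average, 9.92% passed, 7 higher (5.34%) and 6 lower (4.58%) in XLF-/-, and at 8.4% the groups did not overlap. The sequences named are the 4 most frequent of each length. GCTG was the most frequent of the 4-base microhomologies, at 30.3% ± 2.94 of them in PAXX-/- and 13.3% ± 1.56 in XLF-/- (SD, n = 6 each; -17.0 points, exact permutation adjusted p = 0.0480). The lowest PAXX-/- library, at 27.4%, lay above the highest XLF-/- library, at 14.8%.

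Some related sequences fell in the same way. GCT dropped from 20.98% of the 3-base microhomologies in PAXX-/- to 12.01% in XLF-/-, and GGCTG from 18.9% to 7.25% of the 5-base ones. Higher in XLF-/- were GC, 22.9% against 16.5% of the 2-base microhomologies, and CCAG, 6.53% against 2.45% of the 4-base ones. These 4 differences passed, each with an exact permutation adjusted p of 0.0480. The other 11 of these 16 sequences did not pass. Among them, the 5-base AGCTG made up 16.2% ± 11.0 of its length class in PAXX-/- and 15.5% ± 3.63 in XLF-/- (SD, n = 6 each). Its share ran from 2.44 to 28.3% over the PAXX-/- libraries and from 10.6 to 20.6% over the XLF-/- libraries. In the bait AGCTG includes positions 65 and 66, where PAXX-/- clone 2 carried base differences, given below with the bait ends. What part these have in the AGCTG share was not tested. For AGCT, the AID motif itself, the shares were 9.12% ± 1.76 in PAXX-/- and 9.34% ± 1.01 in XLF-/- (SD, n = 6 each).

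The bait end of each Sα junction was taken as the last aligned bait base. In a microhomology join the last aligned bases are shared with the prey. The Sμ end may there have been broken or trimmed back to an earlier base. What part shared bases have in the differences at single positions was not tested. Of 67 bait positions that held 0.5% or more of Sα junctions on average, 68.7% passed, 26 higher (38.8%) and 20 lower (29.9%) in XLF-/-, and at 52.2% the groups did not overlap. A difference at a single position is thus the common case here. The 5 most used positions were 68, 64, 57, 65 and 55.

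Positions 64 and 65 lie at the first AGCT of the bait, whose middle follows position 65. Joins at position 64 made up 4.43, 5.46 and 7.08% of Sα junctions in the lowest, median and highest PAXX-/- library and 1.21, 1.45 and 1.70% in XLF-/-. The groups did not overlap, and WT libraries averaged 6.14%. At position 65 the shares were 3.93% ± 0.930 in PAXX-/- and 2.20% ± 0.279 in XLF-/- (SD, n = 6 each). Both positions passed, with an exact permutation adjusted p of 0.00840 each. The PAXX-/- clones differed, with 4.53% in clone 1 and 6.70% in clone 2 at position 64, and 3.19% and 4.68% at position 65. PAXX-/- clone 2 carried base differences at positions 65 and 66, given below.

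At position 68, the base just after that motif, the order was the opposite. The share was 0.351, 1.81 and 2.89% in the lowest, median and highest PAXX-/- library and 5.17, 5.60 and 5.99% in XLF-/- (exact permutation adjusted p = 0.00840). WT libraries averaged 3.50%. The PAXX-/- value differed between clones, 2.84% in clone 1 and 0.524% in clone 2. PAXX-/- clone 2 also carried base differences from the bait above just before this position: in reads that crossed them, G65A (the bait base G at position 65 read as A, positions counted from 1 at the start of the bait above) was seen in 50.0 to 51.5% and C66T in 39.8 to 40.2%. Of the other XLF-/- and PAXX-/- clones none carried these, while the XLF-/-PAXX-/- clones carried C66T. What part these substitutions have in the bait ends of that clone was not tested. Position 57 was higher in XLF-/-, 3.77% against 2.92% (exact permutation adjusted p = 0.0486), and position 55, 2.40% against 2.66%, did not pass (exact permutation adjusted p = 0.458).

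A stretch of the bait from position 75 to 84 was nearly empty among the Sα junctions of XLF-/- cells. It was picked after the values were seen, so its values are a description with no test. The bases are shown because so few XLF-/- bait ends fell here, at chr12:114664816-114664854 (mm9, minus strand), positions 56 to 94, with the stretch in capitals.

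Bait, positions 56 to 94: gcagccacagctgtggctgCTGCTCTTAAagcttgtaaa

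The stretch lies between the AGCT motifs and ends just before the second. It held 14.3, 15.8 and 20.2% of Sα junctions in the lowest, median and highest PAXX-/- library and 1.29, 1.51 and 1.72% in XLF-/-. In counts, these were 2841 of 17812 junctions and 237 of 15849. WT libraries averaged 15.9% ± 0.601 (SD, n = 3).

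The gap was present in each clone and each kind of join. XLF-/- clone 1 had 1.45% ± 0.110 and clone 2 1.55% ± 0.229, against 14.9% ± 0.626 and 17.9% ± 2.14 in the PAXX-/- clones (SD, n = 3 libraries each). XLF-/- clone 1 carried G77A in 45.4 to 47.8% of reads that crossed the base, and its part in the stretch was not tested. The stretch held 20.5% of direct joins in PAXX-/- and 1.84% in XLF-/-, 16.1% and 1.36% of microhomology joins, and 14.8% and 1.99% of insertion joins.

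The gap was also present near the bait, while on other chromosomes the contrast was smaller and the groups overlapped. Near the bait the stretch held 14.2% ± 1.81 of junctions in PAXX-/- and 1.36% ± 0.136 in XLF-/-, and on other chromosomes 7.20% ± 1.83 and 3.87% ± 0.711 (SD, n = 6 each). Libraries ran from 4.96 to 9.43% in PAXX-/- and from 3.08 to 5.04% in XLF-/- on other chromosomes, and from 3.55 to 7.27% in WT. Of the 10 positions, 8 had enough joins to be tested one by one, and these 8 are among the 20 that passed as lower in XLF-/-. Because the stretch was picked from these same values, those calls are no separate support for it. At position 76 the mean was 3.69% in PAXX-/- and 0.287% in XLF-/-, at 77 it was 3.40% and 0.212%, and at 79 it was 2.07% and 0.0917%.

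Part of the GCTG difference lay in this stretch. GCTG occurs in the bait at several places, and joins on GCTG that ended at position 77 made up 1.08% ± 0.246 of Sα junctions in PAXX-/- (182 junctions) and 0.0873% ± 0.0333 in XLF-/- (15 junctions; SD, n = 6 each). At position 68 the same motif went the other way, 0.311% ± 0.226 (62 junctions) against 1.24% ± 0.146 (194 junctions), again a description. Both places hold substituted bases. The GCTG that ends at 68 includes G65A and C66T of PAXX-/- clone 2, and the one that ends at 77 includes G77A of XLF-/- clone 1. What part these substitutions have in the GCTG shares was not tested.

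Mean bait length counted bases shared with the prey as bait, and microhomologies were longer and more frequent in XLF-/- cells. Counted so, the mean was 65.9, 67.2 and 69.0 bases in the lowest, median and highest PAXX-/- library. In XLF-/- it was 62.6, 65.2 and 67.1 bases, and the groups overlapped. The difference of -2.34 bases (-4.25 to -0.452) had an exact permutation adjusted p of 0.0333, and that call was lost without either clone of either genotype (differences -3.26 to -1.42).

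**Figure D3:**
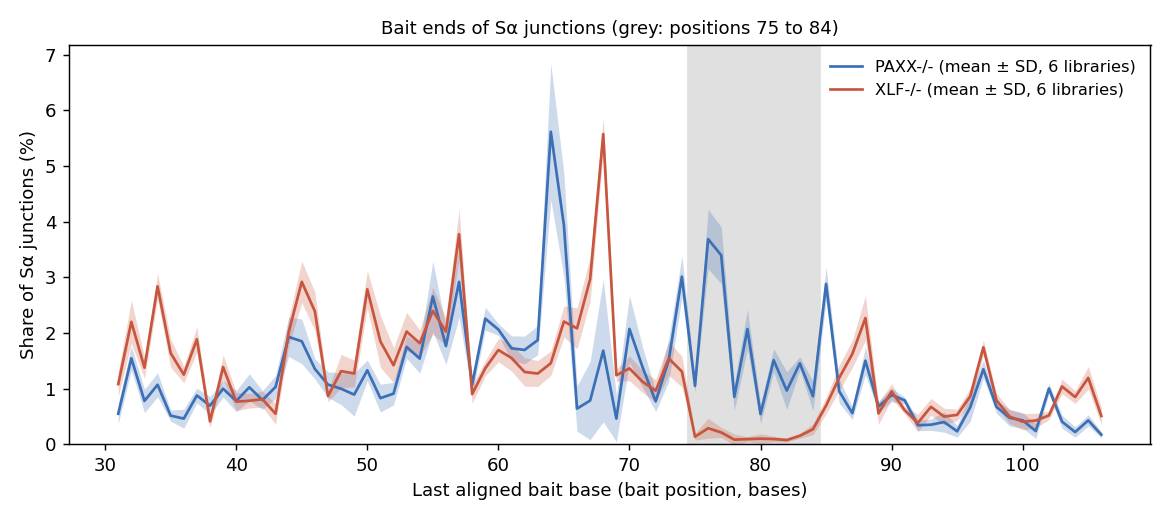
Share of Sα junctions (%, vertical axis) that ended at each bait position (horizontal axis, bases), as means with bands of ±1 SD over 6 libraries a genotype. The grey stretch from 75 to 84 holds 16.4% of PAXX-/- and 1.50% of XLF-/- junctions, and the highest points are at position 64 for PAXX-/- and 68 for XLF-/-.

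On the Sα side, most joins fell in a core of 6161 bases (chr12:114496668-114502828), defined as the shortest interval with 90% of Sα junctions over all clones of the series. The share outside the core was 3.46, 3.85 and 4.04% in the lowest, median and highest PAXX-/- library and 11.3, 13.0 and 14.2% in XLF-/-. The groups did not overlap, and the difference of 9.12 points (7.95 to 9.95) passed and was 10.2 in run 1 and 8.57 in run 2. WT libraries held 3.37% ± 0.359 there (SD, n = 3).

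Along the Sα window, bins of 500 bp that held 0.5% or more of Sα junctions on average were tested, and these reached beyond the core. Of the 16 such bins 93.8% passed, and at 81.2% the groups did not overlap. The 9 that were higher in XLF-/- (56.2%) are the 9 of the 16 farthest from the bait, and the 6 that were lower (37.5%) are the 6 of the 16 nearest to it. Bins nearer still held too few joins to be tested, and in each of them the mean share was higher in XLF-/-. In the first bin past the tested ones the shares were 0.318 to 1.11% in XLF-/- and 0.106 to 0.409% in PAXX-/- libraries. In the second bin they were 0.352 to 0.898% in XLF-/- and 0 to 0.126% in PAXX-/- libraries. In the fullest bin, chr12:114500001-114500500, the share was 16.7, 19.0 and 19.6% in the lowest, median and highest PAXX-/- library and 11.3, 12.1 and 13.0% in XLF-/-, without overlap. The bin from 114501001 fell from 11.8% ± 0.742 to 5.57% ± 0.560, while those from 114499001 and 114498501, farther from the bait, rose from 8.18% ± 0.504 to 12.3% ± 0.592 and from 6.27% ± 0.587 to 10.3% ± 0.519 (SD, n = 6 each). These 4 bins had an exact permutation adjusted p of 0.00544 each. The bin between them, from 114499501, did not pass, at 14.1% ± 1.47 and 12.7% ± 0.422 (SD, n = 6 each; exact permutation adjusted p = 0.0667).

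Orientation at Sα differed too. A join in the deletional orientation removes the DNA between Sμ and Sα and gives a functional switch, and an inversional join turns it round. Deletional joins made up 96.4, 96.8 and 97.3% of Sα junctions in the lowest, median and highest PAXX-/- library and 84.4, 85.7 and 89.8% in XLF-/-. The groups did not overlap, and the difference of -10.3 points (-12.3 to -7.48) passed, being -11.9 in run 1 and -9.55 in run 2. XLF-/- clones differed somewhat, 84.8% ± 0.614 in clone 1 and 88.2% ± 2.04 in clone 2 (SD, n = 3 libraries each), and WT libraries held 95.3% ± 0.549 (SD, n = 3).

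Joins outside the core lay on different sides in the 2 orientations. Of deletional joins, 9.17% ± 0.912 in XLF-/- and 3.16% ± 0.303 in PAXX-/- lay beyond the edge far from the bait (SD, n = 6 each), and 1.41% and 0.478% lay before the near edge. Of inversional joins, 20.1% ± 3.36 in XLF-/- and 2.26% ± 1.46 in PAXX-/- lay before the near edge, and these differences passed. Beyond the far edge inversional joins did not differ detectably, 7.61% ± 1.87 against 6.66% ± 3.16 (SD, n = 6 each; difference 0.950, interval -2.48 to 3.86, exact permutation adjusted p = 0.594). The PAXX-/- shares of inversional joins rest on 46 to 127 joins a library.

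No dependence of the direct share's difference on place or orientation within Sα was detected. Direct joins differed by -10.5 points in the core and -11.5 points outside it, and by -10.6 and -9.99 points among deletional and inversional joins. The difference between core and outside was 1.01 points (-3.62 to 4.78, exact permutation adjusted p = 0.559), and between orientations it was -0.570 points (-5.03 to 3.73, exact permutation adjusted p = 0.829). Intervals of this width do not exclude a difference of several points.

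AGCT at the prey break was looked at in direct joins only, where the break is not blurred by shared bases. In the core, 2.28% of positions, 140 of 6141, lie in the middle of an AGCT. Of direct joins, 3.21% ± 0.483 in PAXX-/- and 2.02% ± 0.923 in XLF-/- had their prey break there (SD, n = 6 each), and the difference of -1.19 points did not pass after adjustment (exact permutation p = 0.0381, adjusted p = 0.0517). The bait end lay in the middle of an AGCT in 3.80% ± 1.10 and 2.99% ± 0.923 of direct joins (SD, n = 6 each; exact permutation adjusted p = 0.271). These shares rest on 3015 direct joins in PAXX-/- and 991 in XLF-/-. By definition no direct join can have both, because bait and prey would then share bases of AGCT and count as microhomology.

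Joins within 10 kb of the bait showed the same structural contrast. Direct joins made up 17.0, 17.3 and 20.0% of them in the lowest, median and highest PAXX-/- library and 6.68, 7.72 and 7.93% in XLF-/-. The groups did not overlap, and the difference of -10.2 points (-11.5 to -9.30) passed. Microhomology joins made up 49.2% ± 2.37 and 71.0% ± 1.70, a difference of 21.8 points that passed, and insertion joins 33.1% ± 1.76 and 21.5% ± 2.12 (SD, n = 6 each), a difference of -11.6. Set against Sα in the same library, the genotype difference in direct joins was -0.421 points apart (-1.63 to 0.866, exact permutation adjusted p = 0.485).

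The distance reached in this window differed as well. Of deletional joins on the Sα side of the bait, 1.36, 1.69 and 2.19% lay over 3 kb away in the lowest, median and highest PAXX-/- library and 18.2, 19.7 and 23.0% in XLF-/-. The XLF-/- share was 11.2 times the PAXX-/- share, 1479 of 7368 joins against 131 of 7610, and the difference of 18.2 points (17.0 to 19.7) passed, being 19.7 in run 1 and 17.5 in run 2. WT libraries held 0.660% ± 0.100 (SD, n = 3), 15 of 2262 joins.

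By class of distance, XLF-/- joins were fewer close to the bait and more frequent beyond 3 kb. Joins under 0.5 kb from the bait differed by -9.68 points and those at 1 to 2 kb by -8.97, and both passed. The classes of 0.5 to 1 kb and 2 to 3 kb did not pass, with exact permutation adjusted p-values of 0.294 and 0.271. Joins at 3 to 5 kb rose from 1.18% ± 0.324 in PAXX-/- to 10.0% ± 0.822 in XLF-/-, and those at 5 to 10 kb from 0.602% ± 0.254 to 9.97% ± 0.899 (SD, n = 6 each). The deletional share below the bait was lower in XLF-/- and passed, 76.5% ± 1.06 against 89.5% ± 0.889, and the share of joins above the bait was higher and passed, 13.5% ± 0.968 against 6.53% ± 1.46 (SD, n = 6 each).

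Near and far joins also differed in structure. Within 3 kb of the bait, direct joins made up 18.2% ± 1.04 in PAXX-/- and 7.68% ± 0.731 in XLF-/-, while over 3 kb they made up 4.67% ± 5.20 and 4.84% ± 1.09 (SD, n = 6 each). The difference between near and far joins was thus 13.5 points in PAXX-/- and 2.83 in XLF-/-, and those 2 values differed by -10.7 points (-15.5 to -5.60), which passed. The PAXX-/- value over 3 kb rests on 17 to 29 joins a library and ranged from 0 to 10.3%.

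**Figure D4:**
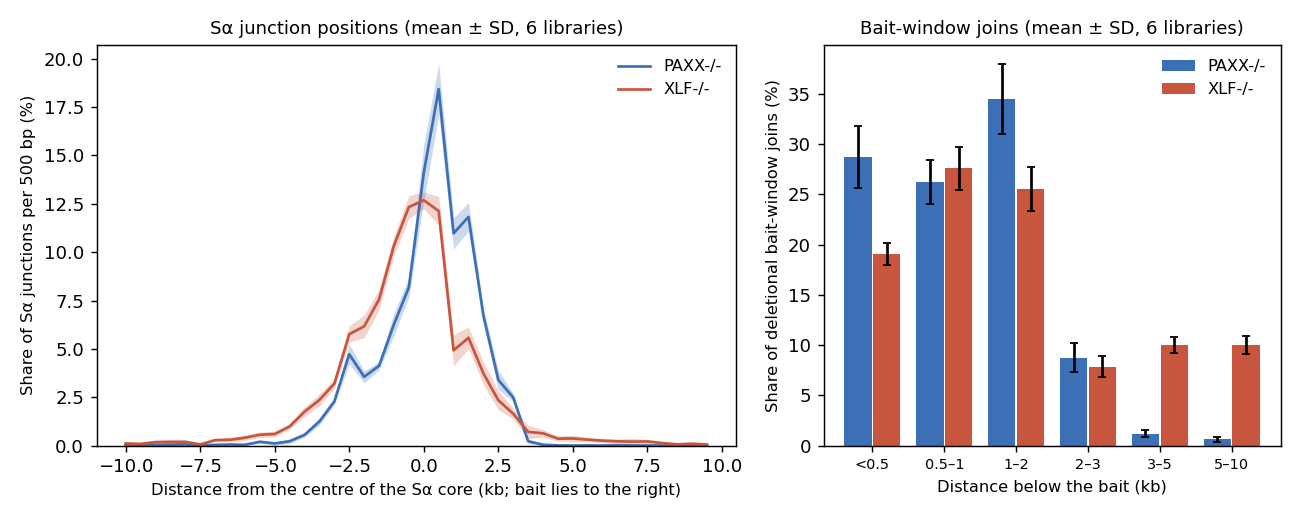
Left, share of Sα junctions (%) per 500 bp against distance from the centre of the Sα core (kb, bait to the right), as means with bands of ±1 SD over 6 libraries a genotype. Right, share of deletional bait-window joins (%) by distance below the bait (kb), as means with ±1 SD. Between 0.5 and 3 kb on the bait side of the centre XLF-/- lies lower, as with 5.57% against 11.8% in the bin from 114501001, and 10.0% and 9.97% of their bait-window joins lie at 3 to 5 and 5 to 10 kb against 1.18% and 0.602% in PAXX-/-.

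On other chromosomes the contrast in direct joins was smaller. Direct joins made up 14.1, 18.1 and 20.0% of them in the lowest, median and highest PAXX-/- library and 11.8, 15.2 and 20.3% in XLF-/-. The groups overlapped, and the difference of -2.48 points (-6.17 to 1.49) did not pass (exact permutation adjusted p = 0.188). It passed when XLF-/- clone 2 library 3 was left out (-3.61, exact permutation adjusted p = 0.0412). Microhomology joins made up 53.2% ± 5.02 and 56.9% ± 5.71 (SD, n = 6 each; difference 3.64, interval -3.73 to 11.0, exact permutation adjusted p = 0.300).

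The test of the difference itself compared regions within each library. Direct joins at Sα minus those on other chromosomes gave -2.50, -1.19 and 1.96 points in the lowest, median and highest PAXX-/- library and -14.1, -9.24 and -5.11 in XLF-/-. These did not overlap, and the difference of -8.15 points (-12.1 to -4.85) passed. Microhomology joins gave 19.5 points (10.3 to 28.5) in the same comparison, which also passed. Microhomologies on other chromosomes averaged 4.14 ± 0.256 bases in PAXX-/- and 3.98 ± 0.0940 in XLF-/- (SD, n = 6 each), longer than at Sα in both genotypes, with no difference that passed (exact permutation adjusted p = 0.123).

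**Figure D5:**
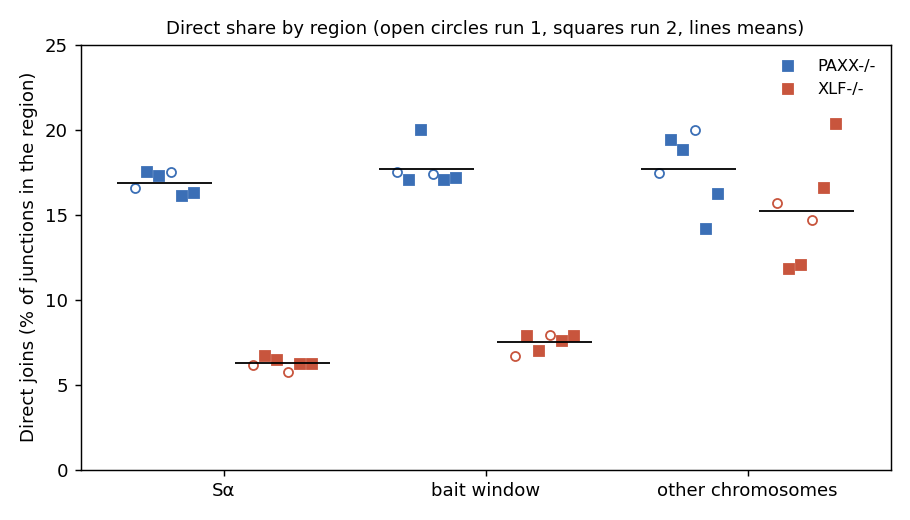
Direct joins (% of junctions in the region) at Sα, in the bait window and on other chromosomes, by library (open circles run 1, filled squares run 2, lines means). The genotypes are apart at Sα and in the bait window, and overlap on other chromosomes, where XLF-/- libraries run from 11.8 to 20.3%.

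How many junctions reached Sα did not separate the genotypes. Outside the bait window, Sα took 51.5, 67.7 and 79.2% of junctions in the lowest, median and highest PAXX-/- library and 45.2, 62.7 and 73.8% in XLF-/- (difference -6.55, interval -19.4 to 5.14, exact permutation adjusted p = 0.283). The groups overlapped almost fully, and without XLF-/- clone 2 the difference was 2.50. Clones of 1 genotype differed more than the genotypes, 70.6% ± 3.41 and 52.5% ± 6.72 in the XLF-/- clones and 73.9% ± 7.73 and 62.3% ± 9.41 in the PAXX-/- clones (SD, n = 3 libraries each). The run moved with this measure too: in each of the 4 clones the library of run 1 was below the mean of those of run 2, a difference of -5.42 to -16.2 points. Other chromosomes took 28.5% ± 9.41 in PAXX-/- and 29.0% ± 10.7 in XLF-/- (SD, n = 6 each; difference 0.457, interval -10.6 to 12.9, exact permutation adjusted p = 0.929).

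The remainder of chromosome 12 did separate them. Junctions between the bait window and the Sα window made up 0.208, 0.473 and 0.700% of those outside the bait window in the lowest, median and highest PAXX-/- library and 1.78, 2.20 and 2.66% in XLF-/-. The groups did not overlap, and the difference of 1.73 points (1.43 to 2.02) passed, from 124 junctions in PAXX-/- and 557 in XLF-/-. WT libraries lay between, at 1.41% ± 0.0979 (SD, n = 3). Chromosome 12 outside both windows and the region between them took 2.88% ± 0.548 and 7.24% ± 0.598 (SD, n = 6 each), which passed. The bait window itself took 27.4% ± 2.30 and 30.8% ± 2.84 of all junctions (SD, n = 6 each; difference 3.33, interval -0.298 to 6.54, exact permutation adjusted p = 0.0875), and this passed without XLF-/- clone 2 (5.78, exact permutation adjusted p = 0.0311).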

How the data were processed

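LAM-HTGTS junctions of XLF-/- and PAXX-/- CH12F3 clones were analysed from the authors' deposited tables, where each line is a junction and its values are coordinates in the read and in mm9, and where 1 table pools a clone's 3 libraries. Bowtie2 and mm9 are named in the submitters' processing notes, and any further step is "not given in the sources used here". Library names hold no replicate number and served only to tell libraries apart. The run was the one in the read name.

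Overlap counted the bases of a read that lay in both alignments. The bases read at the junction equalled the mm9 bases in the tables over 6 bases in 97.6% of lines, and 0.499 to 1.46% of a library's lines repeated another. The Sα window was placed on the 1 kb bin with most junctions among those 50 kb or more from the bait. The bait window reached 10 kb beyond the bait (chr12:114664780-114664913). Exact permutation tests, Benjamini-Hochberg adjustment and intervals were computed with numpy 2.4.6, pandas 2.3.3 and scipy 1.17.1 under Python 3.11.15, and were tested on simulated data. Bait positions, 500 bp bins and microhomology sequences with a mean share under 0.5% were left out. Named positions, bins and sequences are the most frequent by mean share. Alternatives changed the run weighting, windows, gaps, bait substitutions and libraries used. The members, both sets of measures and the lists were chosen with earlier results of these data known, and the second set after these tables were examined.

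Neither the source of the libraries within a clone nor the meaning of the labelled dose of the CD40 antibody could be checked, and p-values measure the spread between libraries.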

Additional observations from a re-analysis of the deposited data

Results flagged for a closer look

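Among 42 groups of 6 libraries screened, 5 had a library far from the others, and chance gives about 1 in 20 groups. Mean microhomology length at Sα was 2.28 bases in PAXX-/- clone 1 library 3, the lowest of its group. Direct joins among direct and microhomology joins at Sα were 22.6% in PAXX-/- clone 1 library 1, also the lowest of its group. In the bait window, direct joins were 20.0% in PAXX-/- clone 1 library 3, the highest of its group. Microhomology joins in the bait window were 67.8% in XLF-/- clone 1 library 1, the lowest of its group. Of deletional joins on the Sα side of the bait, 23.0% lay over 3 kb away in XLF-/- clone 2 library 1, the highest of its group. Each of these libraries still lay on its own genotype's side of the comparison.

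The genotype difference in direct joins differed between regions, by -8.15 points at Sα relative to other chromosomes (exact permutation adjusted p = 0.00714).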

How the results depend on the processing

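No paired analysis was possible because the library names carry no replicate number. Of 23 results, 14 kept their direction and their side of 0.05 under every alternative tried, among them the direct, microhomology and insertion shares at Sα (direct difference -11.5 to -9.79 points), the share outside the core, the deletional share and the far joins near the bait. Over all results, 579 of 616 alternative values kept both. The mean bait length no longer passed in the second run alone (-2.02 bases), without PAXX-/- clone 1 (-3.26), PAXX-/- clone 2 (-1.42), XLF-/- clone 1 (-2.13) or XLF-/- clone 2 (-2.55), and in 7 of 12 settings that left out 1 library (-2.75 to -1.84). The other-chromosome share, which did not pass, turned negative with runs weighted equally (-0.557), with bait ends before the first substitution (-1.80) or 2 or more bases before it (-3.08), without continued bait (-0.252), without PAXX-/- clone 1 (-4.93) or XLF-/- clone 2 (-8.26), and ranged from -2.22 to 3.87 with 1 library left out. The bait-window share passed without gaps over 20 bases (3.48), without prey under 50 bases (3.25) and without XLF-/- clone 2 (5.78), and ranged from 2.43 to 4.12 with 1 library left out. On other chromosomes, the microhomology share passed without gaps over 20 bases (4.25) and was -0.00231 with bait ends 2 or more bases before the first substitution, and the direct share ranged from -3.61 to -1.80 with 1 library left out. The Sα share was 2.50 without XLF-/- clone 2. The direct share at Sα minus the bait window was 0.00827 with bait ends before the first substitution and 0.0842 without XLF-/- clone 2. Ends before the first substitution kept 55.1% of junctions and left 34 bait positions, of which 20 passed, and ends 2 or more bases before it left 33, of which 20 passed. With 200 bp bins 32 of 36 passed. The causes of these changes were not tested. The 2 alternatives on ends 2 bases before a substitution and on continued bait were chosen after seeing the data. Libraries of 4334 to 10164 junctions limit the rare classes most, such as far PAXX-/- joins near the bait, and repeated lines are not independent molecules.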

Other observations

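The bait stretch from position 75 to 84 that was nearly empty at Sα in XLF-/- cells was low at Sα in XLF-/-PAXX-/- and Ligase4-/- cells as well. It held 1.25% ± 0.196 of Sα junctions in the XLF-/-PAXX-/- libraries and 1.70% ± 0.913 in the Ligase4-/- libraries (SD, n = 6 each), against 15.9% in WT and 16.4% in PAXX-/-. Per the design text a PAXX-/- clone was the parent of the XLF-/-PAXX-/- clones, and all these libraries came from other sequencing runs, so the values are set side by side without a test. On other chromosomes the stretch held 4.53% ± 0.932 in XLF-/-PAXX-/-, 5.06% ± 1.61 in Ligase4-/- (SD, n = 6 each) and 5.59% ± 1.89 in WT (SD, n = 3).

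Exact junctions, with the same bait end and the same Sα base, recurred between libraries. Libraries of 1 clone shared 3.77 to 11.9% of the junctions of the smaller library, libraries of the other clone of the same genotype 3.65 to 10.8%, and libraries of the other genotype 1.74 to 6.43%. The ranges for 1 clone and for the other clone of its genotype were close.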
